A study of Mus musculus with 12 samples.

Results

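The enzymes of serine synthesis and of folate one-carbon metabolism were examined in lungs of mice that carry mutations in Iars1, the gene of the cytosolic isoleucyl-tRNA synthetase. The group was chosen by gene symbol, with earlier results of these data known, and holds 10 genes of the 59136 entries in the count table. 3 of them make serine, 4 form the mitochondrial folate branch and 3 the cytosolic folate branch. All 10 passed the filter on low counts. The series has 12 libraries of messenger RNA from lung at day 28, with 6 libraries labelled Mut (replicates 1, 2, 3, 4, 5 and 7) and 6 labelled WT (replicates 1, 3, 4, 5, 6 and 7). Mut mice had the Iars1 genotype Tyr148Cys/Arg444*, in which tyrosine 148 is changed to cysteine and the codon of arginine 444 to a stop, and the sample label calls this genotype an IARS1 knockdown. WT mice had the unmutated gene. The labels give no strain or sex, speak of lung tissue and also of primary cells, and do not tie each library to a mouse of its own. The p-values below therefore measure only the spread between libraries, which may be partly technical.

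Cells make serine from the glycolytic intermediate phosphoglycerate in a chain of 3 enzymes, Phgdh, Psat1 and Psph. Serine then gives a carbon unit to tetrahydrofolate, either in the mitochondrion (Shmt2, Mthfd2, Mthfd1l and Aldh1l2) or in the cytosol (Shmt1, Mthfd1 and Aldh1l1). The mitochondrial branch normally oxidises the carbon unit and exports it as formate, which the cytosolic branch uses for purines, thymidylate and methionine. Several genes of serine synthesis and of the mitochondrial branch are known targets of ATF4, the transcription factor of the amino acid response.

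Library totals ran from 17118716 to 24014890 counts, and between 34956 and 41142 entries had at least 1 read. Iars1, annotated under the older symbol Iars, had a lowest, median and highest level of 41.3, 53.4 and 71.4 CPM (counts scaled to library size) in Mut lungs, against 35.5, 46.2 and 58.2 CPM in WT lungs (log2 fold change 0.29, SE 0.14, edgeR adjusted p = 0.1895), so the transcript level did not show a knockdown. Lung markers were abundant in both groups, with summed alveolar type 2 cell markers of 21630 to 42890 CPM in Mut lungs and 22770 to 31210 CPM in WT lungs. Mut replicate 7 stood apart from the other 5 Mut libraries. It had the highest alveolar type 2 sum (42890 CPM, against 21630 to 27640 CPM in the other 5) and the lowest endothelial sum (2104 CPM, against 3254 to 3983 CPM), and WT endothelial sums were 3142 to 3412 CPM. Levels below are CPM scaled by the trimmed mean of M-values (TMM), log2 fold changes are Mut minus WT, and a gene was called when its edgeR quasi-likelihood p, adjusted by Benjamini-Hochberg over all 19004 tested genes, was under 0.05. In whole lung, fewer cells of a type and less RNA per cell cannot be told apart.

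5 of the 10 enzymes were called higher in Mut lungs and 0 were called lower, where 4.57% of all tested genes were called higher and 5.31% lower. Over all genes this split was 869 higher and 1010 lower, against 519 and 1511 when only library totals were used and 648 and 1242 under upper-quartile factors, and the count of 5 and 0 enzymes was the same under both. The 5 were Phgdh and Psat1 of serine synthesis and Shmt2, Mthfd2 and Aldh1l2 of the mitochondrial branch. Psph, Mthfd1l and all 3 cytosolic enzymes were not called. The median log2 fold change of the 10 was 0.53, beside 0.01 over all tested genes. 6 enzymes, these 5 and Shmt1, had all 6 Mut libraries above every WT library in TMM-scaled CPM, which held for 2.18% of all tested genes. The number called was also 5 without Mut replicate 7 and lay between 4 and 6 over the 22 alternative fits. Because the enzymes were chosen with earlier results of these data known, these counts beside the shares over all genes are a description.

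The first enzyme of serine synthesis showed the largest change of the 3 and the last was not called. Phgdh (ENSMUSG00000053398, chromosome 3 from 98313170 to 98339990 of mouse build GRCm38), the dehydrogenase that commits phosphoglycerate to serine, had a lowest, median and highest level of 33.3, 37.4 and 47.1 CPM in Mut lungs, against 8.60, 10.9 and 11.7 CPM in WT lungs. All 6 Mut libraries were above every WT library, and the lowest Mut value was still well clear of the highest WT value. Phgdh rose by 1.92 on the log2 scale (SE 0.12, 95% confidence interval 1.68 to 2.17, adjusted p = 1.17e-07, edgeR), a 3.79-fold change. Psat1 (ENSMUSG00000024640, chromosome 19 from 15904678 to 15947337), the aminotransferase of the second step, had 37.1, 44.4 and 57.4 CPM in Mut lungs, against 20.6, 24.0 and 27.5 CPM in WT lungs. The groups again did not overlap. Psat1 rose by 0.97 (SE 0.11, interval 0.74 to 1.19, adjusted p = 0.000136), a 1.95-fold change. Psph (ENSMUSG00000029446, chromosome 5 from 129765558 to 129787449), the phosphatase that releases serine, had 11.1, 12.3 and 15.8 CPM in Mut lungs and 9.41, 11.5 and 14.6 CPM in WT lungs. The Psph ranges overlapped over most of their length, with 2 of 6 Mut libraries above every WT library. Its log2 fold change was 0.14 (SE 0.12, interval −0.12 to 0.40, adjusted p = 0.467). Psph shares 452 exon bases with Cct6a, a chaperonin gene on the opposite strand with 165 ± 29.3 CPM in Mut lungs and 151 ± 16.8 CPM in WT lungs (SD, n = 6 each), and no source used here says whether the counting used strand, so reads of the 2 genes may be mixed.

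**Figure D1:**
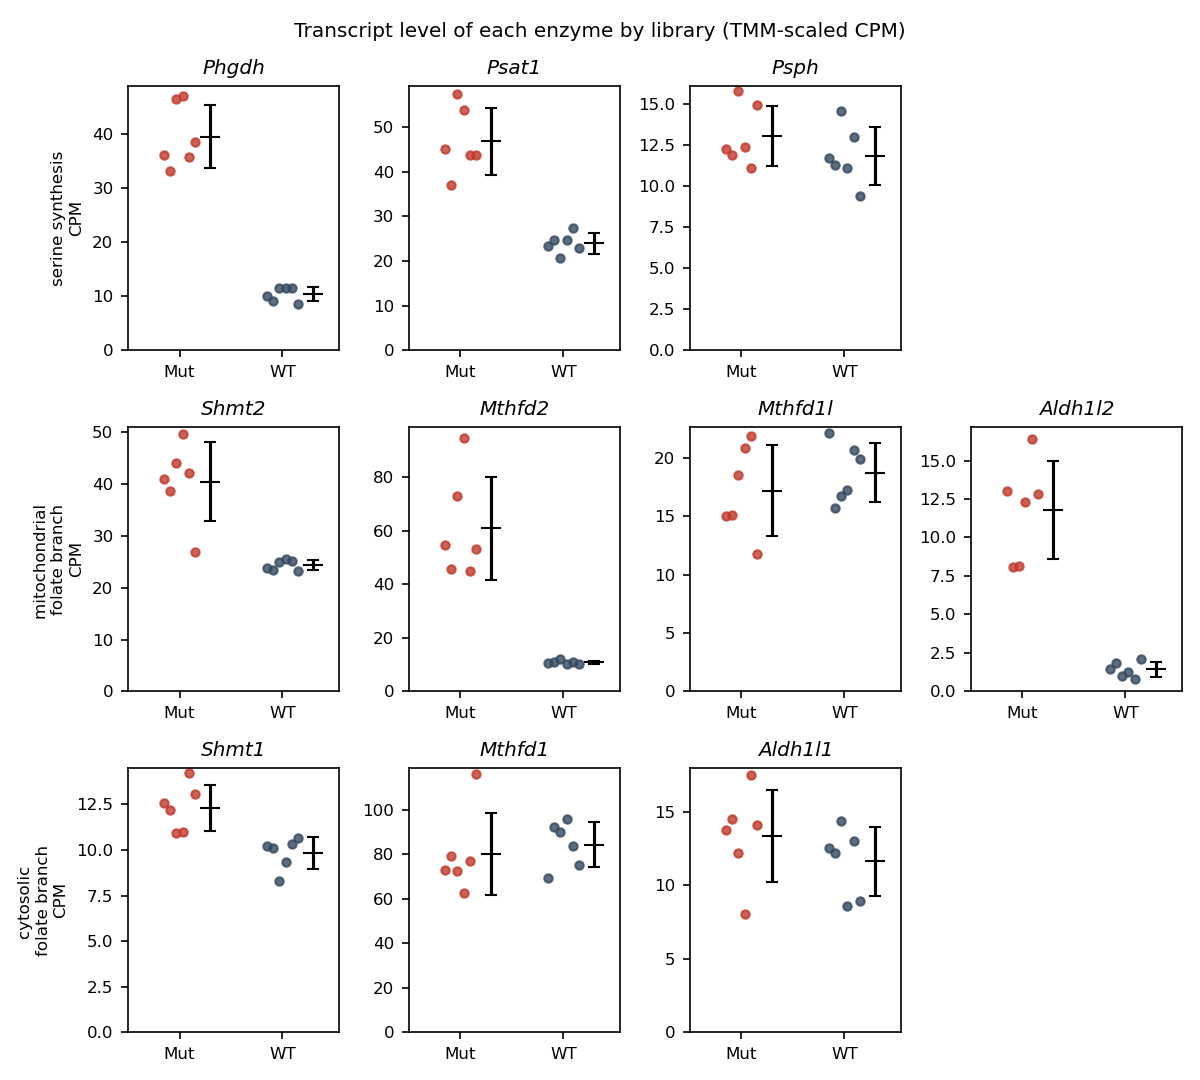
Each panel plots the TMM-scaled CPM of an enzyme (vertical axis, starting at 0) in the 6 Mut and the 6 WT libraries, with a point per library and the mean ± SD beside it; rows are serine synthesis, the mitochondrial branch and the cytosolic branch. Phgdh, Psat1, Shmt2, Mthfd2, Aldh1l2 and Shmt1 have all 6 Mut points above all 6 WT points, and Mut replicate 7 is the high point of Mthfd1 at 116 CPM.

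In the mitochondrial branch 3 of 4 enzymes rose, by very different amounts. Shmt2 (ENSMUSG00000025403, chromosome 10 from 127517123 to 127522444), which moves a carbon from serine to tetrahydrofolate and releases glycine, had 26.8, 41.6 and 49.7 CPM in Mut lungs, against 23.3, 24.4 and 25.6 CPM in WT lungs. The WT libraries lay within a narrow band (coefficient of variation 4.11%), and the lowest Mut value, of replicate 7, was just above it. Shmt2 rose by 0.73 (SE 0.11, interval 0.49 to 0.98, adjusted p = 0.00233), a 1.66-fold change. Mthfd2 (ENSMUSG00000005667, chromosome 6 from 83305691 to 83325908), the dehydrogenase and cyclohydrolase that oxidises the carbon unit and that adult tissues usually express at low levels, had 45.1, 54.0 and 94.6 CPM in Mut lungs, against 10.1, 10.8 and 12 CPM in WT lungs. The groups lay far apart, and the Mut libraries differed far more among themselves (coefficient of variation 31.6%, against 6.20% in WT lungs). Mthfd2 rose by 2.49 (SE 0.17, interval 2.14 to 2.85, adjusted p = 4.89e-07), a 5.62-fold change.

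Aldh1l2, the mitochondrial formyl-tetrahydrofolate dehydrogenase, which releases the carbon unit as carbon dioxide and yields NADPH, had the largest fold change of the 10. It (ENSMUSG00000020256, chromosome 10 from 83487450 to 83534140) had 8.06, 12.6 and 16.4 CPM in Mut lungs, against 0.824, 1.36 and 2.12 CPM in WT lungs. In reads these were 151 to 313 counts per Mut library and 15 to 39 per WT library, so the WT level rests on few reads. Aldh1l2 rose by 3.04 (SE 0.24, interval 2.54 to 3.54, adjusted p = 3.35e-06), an 8.23-fold change, and by 1.07 in limma on log2(FPKM + 1), a scale that understates changes of low genes. It shares 1056 of its 7503 exon bases with D10Wsu102e on the opposite strand, which had 31.4 ± 2.88 CPM in Mut lungs and 26.9 ± 4.62 CPM in WT lungs (SD, n = 6 each, adjusted p = 0.202, edgeR), and reads of the 2 genes may be mixed.

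Mthfd1l was the mitochondrial enzyme that was not called. It (ENSMUSG00000040675, chromosome 10 from 3973118 to 4167081) encodes the mitochondrial formyl-tetrahydrofolate synthetase, the step that frees formate for export. Its lowest, median and highest levels were 11.7, 16.8 and 21.9 CPM in Mut lungs and 15.7, 18.5 and 22.1 CPM in WT lungs. No Mut library was above the highest WT library, and the lowest value was that of Mut replicate 7. The log2 fold change was −0.13 (SE 0.14, interval −0.43 to 0.18, adjusted p = 0.598), an interval that ends below the lower bound of Shmt2, the smallest of the 3 increases.

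**Figure D2:**
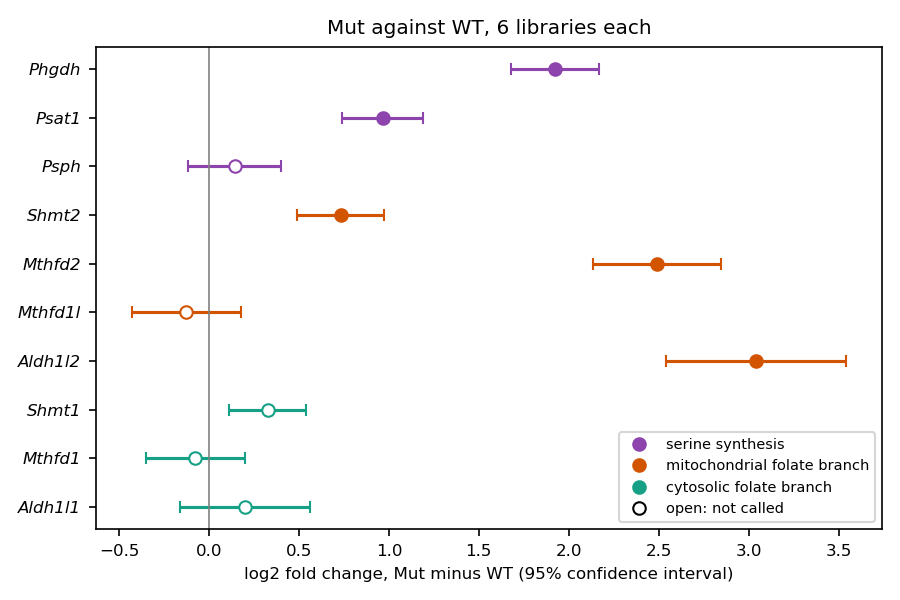
The plot gives the log2 fold change, Mut minus WT (horizontal axis), of each enzyme with its 95% confidence interval derived from the edgeR test. Points are coloured by branch and filled for called genes. The 3 cytosolic enzymes, Psph and Mthfd1l lie between −0.13 and 0.33, and the 5 called enzymes between 0.73 and 3.04.

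The promoters of 4 of the 5 called enzymes are shown because these genes were all called higher in Mut lungs, with Mthfd1l as the mitochondrial enzyme that was not called. RefSeq promoter windows (GRCm38.p6, 250 bases before to 50 after a gene's start) matched 9 of the 10 enzymes by symbol, all but Aldh1l2, with 10 windows, as Psat1 has 2, of which the one farther upstream is shown. The 150 bases before the start read 5′ to 3′ as follows, with the CCAAT box (CCAAT, or ATTGG on the other strand) in capitals.
Phgdh, chr3:98339970-98340119, minus strand: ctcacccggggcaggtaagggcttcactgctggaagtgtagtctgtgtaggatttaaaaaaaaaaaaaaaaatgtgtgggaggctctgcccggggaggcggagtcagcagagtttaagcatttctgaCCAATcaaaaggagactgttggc
Psat1, chr19:15925060-15925209, minus strand: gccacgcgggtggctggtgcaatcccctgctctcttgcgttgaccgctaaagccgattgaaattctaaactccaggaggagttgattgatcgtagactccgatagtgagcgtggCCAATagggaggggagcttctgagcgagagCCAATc
Shmt2, chr10:127522445-127522594, minus strand: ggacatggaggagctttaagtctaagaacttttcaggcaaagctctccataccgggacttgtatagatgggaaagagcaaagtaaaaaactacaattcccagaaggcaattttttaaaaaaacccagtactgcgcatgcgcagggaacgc
Mthfd2, chr6:83317605-83317754, minus strand: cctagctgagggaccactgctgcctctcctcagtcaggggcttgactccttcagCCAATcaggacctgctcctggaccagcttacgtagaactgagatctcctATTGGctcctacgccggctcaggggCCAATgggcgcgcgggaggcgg
Mthfd1l, chr10:3972925-3973074, plus strand: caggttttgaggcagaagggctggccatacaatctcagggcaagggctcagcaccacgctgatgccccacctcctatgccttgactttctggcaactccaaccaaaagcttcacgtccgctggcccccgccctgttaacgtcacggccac

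The CCAAT box, a motif added after the sequences were seen, was in 7 of the 10 windows of the enzymes and in 37.4% of all 32851 windows. It matched 7 of the 9 enzymes, Phgdh, Psat1, Psph, Mthfd2, Shmt1, Mthfd1 and Aldh1l1, with no match in the Psat1 window that is not shown. It was found in 3 of the 4 called enzymes with a window and in 4 of the 5 uncalled ones, and in neither Shmt2 nor Mthfd1l. The core of the composite element that ATF4 binds with a C/EBP partner (TGATGNAA, both strands) matched 0 of the 10 windows and 3.97% of all windows. The cAMP response element (TGACGTCA) and the canonical E-box (CACGTG) also matched 0 of the 10 and 1.79% and 7.15% of all windows. A loose E2F-like element (TTTNNCGC) matched the windows of Psph and Shmt2 and 5.17% of all windows. These are matches of letters in a short window and say nothing of binding there or elsewhere in the genes. The windows of Psat1, Mthfd2, Shmt1 and Aldh1l1 lie inside the chromosome ranges given for these genes. Starts annotated farther upstream were not searched.

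None of the cytosolic enzymes passed the threshold. Shmt1 (ENSMUSG00000020534, chromosome 11 from 60788104 to 60811718), the cytosolic counterpart of Shmt2, had 10.9, 12.4 and 14.2 CPM in Mut lungs, against 8.28, 10.2 and 10.7 CPM in WT lungs. The groups did not overlap, though the gap between them was small, and in FPKM, which is scaled to library totals, they overlapped (lowest Mut value 2.75, highest WT value 2.80). Its log2 fold change of 0.33 (SE 0.10, interval 0.11 to 0.54) narrowly missed the threshold (adjusted p = 0.0513, edgeR). Over the 22 alternative fits the adjusted p ran from 0.0294 to 0.227, and 18 of them did not call Shmt1. It was called by DESeq2 (adjusted p = 0.0294), with a filter of at least 1 CPM in 6 libraries (0.0498), and without Mut replicate 3 (0.0365) or WT replicate 7 (0.0499). Shmt1 shares 184 exon bases with Smcr8 on the opposite strand, which had 51.7 ± 6.68 CPM in Mut lungs and 41.7 ± 7.11 CPM in WT lungs (SD, n = 6 each, log2 fold change 0.31, adjusted p = 0.102).

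Mthfd1 and Aldh1l1 overlapped between the groups. Mthfd1 (ENSMUSG00000021048, chromosome 12 from 76255298 to 76319803), the cytosolic enzyme that makes formyl-tetrahydrofolate from formate and interconverts it with the more reduced forms, had 62.5, 75.0 and 116 CPM in Mut lungs and 69.4, 86.9 and 95.8 CPM in WT lungs. 5 of the 6 Mut libraries lay between 62.5 and 79.5 CPM, and replicate 7 alone was above every WT library. The log2 fold change of Mthfd1 was −0.08 (SE 0.13, interval −0.35 to 0.20, adjusted p = 0.739), and without Mut replicate 7 it was −0.21 (adjusted p = 0.145). Aldh1l1 (ENSMUSG00000030088, chromosome 6 from 90486427 to 90600203), the cytosolic counterpart of Aldh1l2, had 8.08, 13.9 and 17.5 CPM in Mut lungs and 8.62, 12.4 and 14.4 CPM in WT lungs. The Mut range enclosed the WT range, and the log2 fold change was 0.20 (SE 0.17, interval −0.16 to 0.56, adjusted p = 0.461).

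The branches were set against each other within each library by the ratio of FPKM between a mitochondrial enzyme and its cytosolic counterpart. FPKM are fragments scaled by gene length and by the counted reads of the library. The plain ratio does not depend on how libraries are scaled. The tested ratio has 0.1 FPKM added to each value, so it can depend on scaling where a gene is low. The ratios come from the same libraries and genes as the fold changes above, so their tests are not separate evidence. The Mthfd2 and Mthfd1l ratios also share Mthfd1. Mthfd2 stood at 0.585 to 1.93 times the level of Mthfd1 in Mut lungs (median 0.851), against 0.135 to 0.197 times in WT lungs (median 0.170). Mthfd2 was above Mthfd1 in 2 Mut libraries, replicates 3 and 4, and far below it in every WT library. The mean log2 ratio, with 0.1 FPKM added to each value, was −0.07 ± 0.63 in Mut lungs and −2.57 ± 0.19 in WT lungs (SD, n = 6 each), a difference of 2.50 (exact permutation test, two-sided p = 0.00216, which is the minimum for 6 against 6, adjusted p = 0.00433 over the 4 ratios). Aldh1l2 stood at 0.334 to 0.915 times the level of Aldh1l1 in Mut lungs, against 0.0381 to 0.143 times in WT lungs. That log2 ratio differed by 2.35 (exact permutation p = 0.00216, adjusted p = 0.00433), with all 6 Mut libraries above every WT library for both ratios. The size of the Aldh1l2 difference depended on the value added, 0.98 with 1 FPKM and 2.82 with 0.01 FPKM, because Aldh1l2 was low in WT lungs.

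The other 2 ratios did not pass the threshold. Shmt2 stood at 2.56 to 5.65 times the level of Shmt1 in Mut lungs (median 4.02), against 2.73 to 3.76 times in WT lungs (median 2.97), so the mitochondrial transcript was the more abundant per length in every library. The mean log2 ratio was 1.98 ± 0.39 in Mut lungs and 1.60 ± 0.17 in WT lungs (SD, n = 6 each, difference 0.39, exact permutation p = 0.0541, adjusted p = 0.0722). 5 of the 6 Mut libraries lay above every WT library, and Mut replicate 7 lay below all of them. Without that library the difference was 0.52 (exact permutation test, adjusted p = 0.00577, the 11 other libraries), and with 1 FPKM added it was 0.40 (adjusted p = 0.0375). The other 13 of 15 alternatives did not pass, with adjusted p of 0.0577 to 0.167. Mthfd1l stood at 0.101 to 0.333 times the level of Mthfd1 in Mut lungs and 0.171 to 0.319 times in WT lungs. Its log2 ratio differed by −0.05 (exact permutation p = 0.883, adjusted p = 0.883), and by 0.17 without Mut replicate 7. Annotated transcripts of these 4 pairs shared no identical stretch longer than 22 bases, the length found in Aldh1l2 and Aldh1l1.

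**Figure D3:**
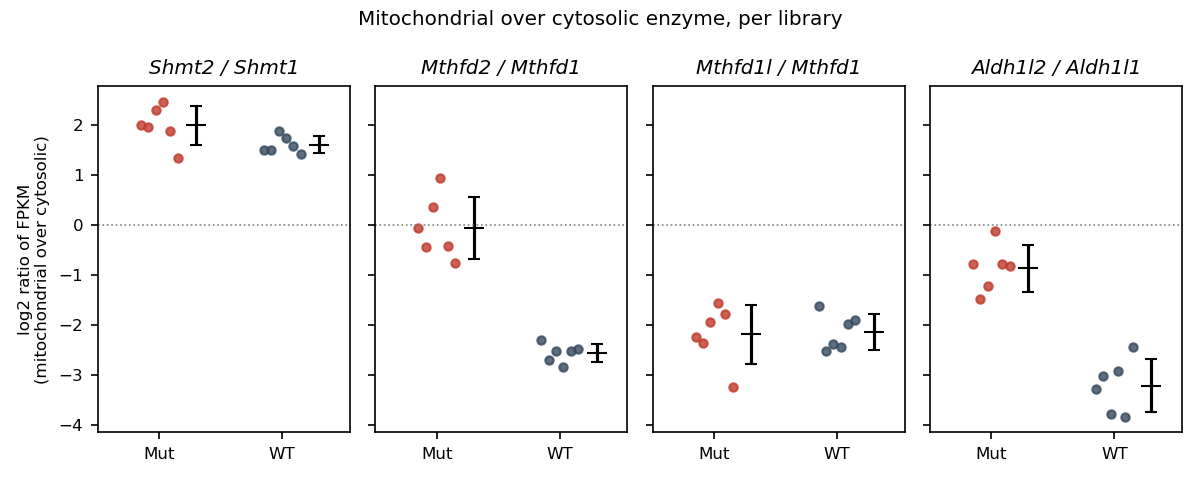
Each panel plots, per library, the log2 ratio of FPKM of a mitochondrial enzyme over its cytosolic counterpart (vertical axis, 0.1 FPKM added to each), with the mean ± SD beside the 6 Mut and the 6 WT points; the dotted line marks equal levels. The groups are separate for Mthfd2 / Mthfd1 and Aldh1l2 / Aldh1l1, and the lowest Mut point of the Shmt2 and Mthfd1l panels is replicate 7.

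The order of the levels per gene length differed between the groups in its upper part. In Mut lungs Mthfd1 (17.7 ± 4.03 FPKM), Mthfd2 (17.1 ± 5.37 FPKM) and Phgdh (15.6 ± 2.29 FPKM) led, less than 1 SD apart (SD, n = 6 each for all values of this kind). Shmt2 (12.7 ± 2.42 FPKM) and Psat1 (10.8 ± 1.73 FPKM) followed, closer together than the SD of Shmt2. In WT lungs Mthfd1 stood alone at the top (19.4 ± 2.38 FPKM), followed by Shmt2 (7.99 ± 0.285 FPKM) and Psat1 (5.76 ± 0.582 FPKM), each set off from the next by more than 2 SD. Mthfd1l (4.31 ± 0.583 FPKM) and Phgdh (4.29 ± 0.537 FPKM) could not be told apart in WT lungs, and Mthfd2 was the sixth of the 10 (3.18 ± 0.177 FPKM). In both groups Shmt1, Psph and Aldh1l1 lay close together, from 2.90 to 3.11 FPKM on average in Mut lungs and from 2.59 to 2.79 FPKM in WT lungs, and Aldh1l2 was the lowest (1.54 ± 0.426 FPKM in Mut lungs and 0.194 ± 0.0689 FPKM in WT lungs). The 4 mitochondrial enzymes together had 35.2 ± 7.62 FPKM in Mut lungs and 15.7 ± 0.550 FPKM in WT lungs. The 3 cytosolic enzymes together had 23.7 ± 4.53 FPKM in Mut lungs and 24.6 ± 2.29 FPKM in WT lungs, and the 3 serine synthesis enzymes 29.3 ± 4.21 FPKM in Mut lungs and 12.8 ± 1.04 FPKM in WT lungs.

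The called enzymes did not share a single order over the Mut libraries. Replicate 4 was the highest Mut library for Phgdh, Shmt2 and Mthfd2 (47.1, 49.7 and 94.6 CPM), and replicate 3 was the highest for Psat1 and next to replicate 4 for the other 3. Aldh1l2 ran otherwise, with replicate 5 the highest (16.4 CPM) and replicate 3 the second lowest (8.17 CPM). Replicate 2 was the lowest or second lowest Mut library for all 5. After each group's mean was subtracted, the tested genes of at least 1 CPM whose log2 CPM was most like that of Phgdh over the 12 libraries were Gm43461, Tmed1, Pdss2, Eif4ebp1 and Enkd1 (Pearson r from 0.864 to 0.930). For Mthfd2 they were Eif4ebp1, Nup62, Tfpi2, A430090L17Rik and Gars (r from 0.886 to 0.927). Eif4ebp1, which encodes an inhibitor of translation initiation, was near both. Of these 9 genes, Eif4ebp1 (log2 fold change 0.93, edgeR adjusted p = 0.00116) and the glycyl-tRNA synthetase gene Gars (0.68, adjusted p = 0.000513) were called higher, and Gm43461, the closest to Phgdh, was called lower (−0.85, adjusted p = 0.0128). The other 6 were not called, with log2 fold changes from −0.39 (A430090L17Rik) to 0.21 (Nup62). These are the closest of 16790 genes over 12 libraries and are given as a description.

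The pathways that border these enzymes changed at few points. Of 71 tested genes in 6 lists of neighbouring pathways, 6 were called higher (8.45%, beside 4.57% of all tested genes) and 2 lower (2.82%, beside 5.31%), with a median log2 fold change of 0.07. These lists were also chosen with earlier results of these data known. Serine transport and use held 4 of the 6 increases among its 22 genes, with a median of 0.12. They were Slc38a2, a carrier of small neutral amino acids (449 ± 71.6 CPM in Mut lungs and 241 ± 44.4 CPM in WT lungs, SD, n = 6 each, log2 fold change 0.90, edgeR adjusted p = 0.00164), Slc1a4, an exchanger of serine and other neutral amino acids (0.91, adjusted p = 0.00178), Slc6a9, a glycine transporter (1.05, adjusted p = 0.00203), and Ptdss2, which puts serine into phosphatidylserine (0.22, adjusted p = 0.0428). All 6 Mut libraries lay above every WT library for each of these 4 genes, which held for 2.18% of all tested genes. The 4 genes were named because they were called, so their separation adds little to the calls. The call of Ptdss2 was lost in 15 of 22 alternative fits. The methionine cycle and methyl supply list had 2 increases among 12 tested genes (median 0.23). These were Ahcyl2, a relative of the adenosylhomocysteine hydrolase (102 ± 12.1 CPM in Mut lungs and 58.9 ± 7.71 CPM in WT lungs, log2 fold change 0.79, adjusted p = 0.000510), and the hydrolase gene Ahcy itself (0.32, adjusted p = 0.0394), whose call was also lost in 15 of 22 alternative fits.

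The thymidylate genes Tyms and Tk1 fell, and no purine gene of the same list was called. Tyms, the thymidylate synthase that takes its carbon from the cytosolic folate pool, had 7.55 ± 1.07 CPM in Mut lungs and 12.5 ± 0.459 CPM in WT lungs (SD, n = 6 each, log2 fold change −0.73, adjusted p = 0.00130), and Tk1, the thymidine kinase of the salvage route, fell by 0.50 on the log2 scale (adjusted p = 0.0123). Both genes were lower in all 6 Mut libraries than in every WT library, which held for 2.39% of all tested genes in this direction. The other 14 genes of the purine and thymidylate list were not called, and the median of the list was −0.02. Cell cycle markers, of which Tyms is one, fell beside them, in 13 of 16 genes (5.31% of all tested genes were called lower), with a summed level of 216 to 376 CPM in Mut lungs and 345 to 440 CPM in WT lungs. Their part in the fall of Tyms and Tk1 was not tested.

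None of the 14 genes of folate uptake, retention and reduction was called (median −0.04), nor any of the 4 genes of the glycine cleavage system or the 3 tested genes of mitochondrial methionyl-tRNA formylation. Genes singled out after their values were seen were Mthfd2l, the closest relative of Mthfd2, with 10.8 CPM in Mut lungs and 10.4 CPM in WT lungs on average (log2 fold change 0.06, adjusted p = 0.770), and Slc25a32, the mitochondrial folate carrier (0.10, adjusted p = 0.384). Annotated transcripts of Mthfd2 and Mthfd2l shared no identical stretch longer than 20 bases.

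**Figure D4:**
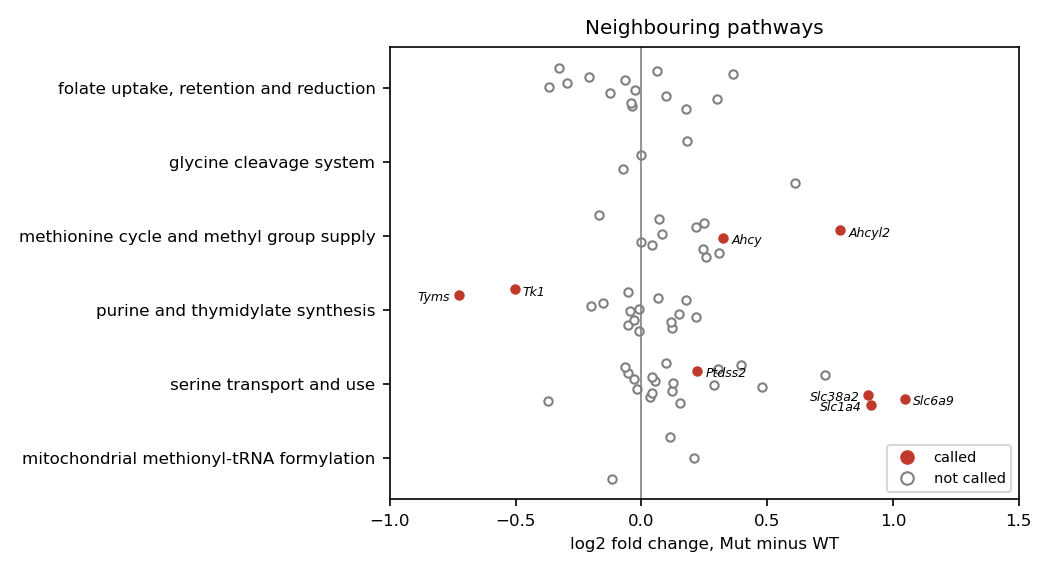
Each point is a tested gene of a neighbouring pathway, placed by its log2 fold change, Mut minus WT (horizontal axis), in a row per list, with called genes filled and named. 6 genes lie to the right as called increases, from 0.22 (Ptdss2) to 1.05 (Slc6a9), and Tyms and Tk1 lie to the left.

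Cell type markers also differed between the groups, where 4.57% of all tested genes were called higher and 5.31% lower. The marker lists were chosen with earlier results of these data known. B cell markers fell in 10 of 10 genes (182 to 304 CPM summed in Mut lungs, 344 to 613 CPM in WT lungs), T cell markers in 8 of 10 (85.8 to 149 CPM in Mut lungs, 140 to 200 CPM in WT lungs) and erythroid markers in 7 of 7 (154 to 819 CPM in Mut lungs, 980 to 5869 CPM in WT lungs). Adipocyte markers rose in 3 of 6 tested genes (215 to 449 CPM summed in Mut lungs, 115 to 310 CPM in WT lungs). Most of that sum was Lpl (306 CPM on average in Mut lungs, 167 CPM in WT lungs). Alveolar macrophage markers rose in 2 of 8 genes (606 to 937 CPM in Mut lungs, 469 to 659 CPM in WT lungs), Chil3 (log2 fold change 0.68) and Fabp4 (1.57). Marco, Siglecf and Itgax had log2 fold changes of −0.55, −0.34 and −0.14 and were not called. Car4, Pparg and Mrc1 had 0.20, 0.21 and 0.24 and were not called either. Airway markers rose in 3 of 8 genes (11170 to 21270 CPM in Mut lungs, 14220 to 23430 CPM in WT lungs). Alveolar type 1, alveolar type 2, fibroblast and endothelial markers had 1 of 6, 1 of 10, 2 of 6 and 0 of 6 genes called higher and none called lower. Cardiac muscle had 0 of 6 genes called, with 255 to 1613 CPM summed in Mut lungs and 153 to 660 CPM in WT lungs. Hepatocyte markers summed to under 3 CPM in every library. The part of these markers in the changes of the 10 enzymes was not tested.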

How the data were processed

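Poly(A) RNA of 12 lung libraries was profiled (column isolation, oligo(dT) selection and random hexamer priming, with no strand-marking step mentioned, per the labels' protocols). The authors deposited a count table of whole reads per gene and library, with a different total in each library, and an FPKM table. The deposited FPKM values were the same counts divided by library total and a length per gene, which held within 1% in 18438 of 18438 genes with at least 5 reads in every library. mm10 and limma are named, with no role, per the submitters' processing notes. The read aligner, the counter and its strand setting are not given in the sources used here. Symbols and coordinates were taken from GENCODE M21 (GRCm38, the assembly of mm10), which matched 54409 of 59136 entries. The 4727 others held 0.589% to 0.872% of the counts and stayed in the fit. Some genes are not reported here.

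The count model was edgeR 4.0.16 in R 4.3.3 (filterByExpr with minimum count 10 and minimum total 15, TMM factors of 0.969 to 0.990 in Mut and 1.00 to 1.04 in WT, robust quasi-likelihood test, genotype as the only term, 19004 genes). Alternatives were RLE, upper-quartile and no scaling, other filters, DESeq2 1.42.0, limma 3.58.1 (voom, and trend on log2 FPKM for genes of at least 0.1 FPKM on average), the replicate number as a block, and each library left out in turn. Ratios were tested over all 924 splits in scipy 1.17.1. On simulated counts for 19004 genes with 6 libraries a group, changes were set in some genes of at least 10 counts on average. These were far fewer than the 869 higher and 1010 lower genes called in the real data, so the counts below need not hold there. Of the changed genes that passed the filter, the test called 21 of 49 at 1.5-fold and 40 of 49 at 2-fold. It called 45 of 48 at 3-fold and 46 of 48 at 4-fold, and made 4 false calls. Intervals are symmetric 95% confidence intervals from the t distribution. Their SE was derived from the test as the absolute log2 fold change over the square root of its F statistic. The 10 members, the 6 pathway lists and the 13 marker lists were chosen with earlier results of these data known; 2 listed symbols, Map1d and Ahsp, had no match. All members are named, and of each pathway list at most 4 called genes with the smallest p.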

Additional observations from a re-analysis of the deposited data

Results flagged for a closer look

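Mthfd1 in Mut replicate 7 lay far from the rest of its group. It read 116 CPM there, against 62.5 to 79.5 CPM in the other 5 Mut libraries, and the gap to its nearest neighbour took up 0.684 of the group's range, above the critical value of 0.625 for 6 values. It was the 1 value flagged among 28 groups of 6 values examined (10 genes and 4 ratios in Mut and in WT), of which chance flags about 1 in 20. The same library had the lowest Shmt2 and Mthfd1l and the highest alveolar type 2 marker sum of the Mut group, whose part in this value was not tested.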

How the results depend on the processing

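Of the 10 enzymes, none changed sign in any of the 22 alternative fits. Between 4 and 6 were called higher and 0 lower; Phgdh, Psat1, Mthfd2 and Aldh1l2 were called in all 22 and Shmt2 in 21. The counts over all genes moved more than those of the enzymes. Called genes numbered 869 higher and 1010 lower, against 519 higher with library totals alone (1511 lower), 250 and 253 higher by limma on log2(FPKM + 1) and log2(FPKM + 0.1), and 74 higher and 33 lower with the replicate number as a block. With 1 library left out they ranged from 401 to 1165 higher and from 556 to 1206 lower, with the lowest counts without WT replicate 5. The higher count moved by over 1.5 times without Mut replicate 1, 2 or 5 or WT replicate 3, 4, 5 or 6, and the lower count without these other than Mut replicate 1. No sign was seen that the same number pairs the libraries. Deviations of same-numbered libraries from their group means correlated at −0.144 to 0.112 over 5 pairs. Of these, 0 of 5 correlated best with its own number. Such correlations cannot exclude a weak pairing. With the block Shmt2 (log2 fold change 0.73, adjusted p = 0.0502), Tyms (−0.69, 0.0664) and Tk1 (−0.49, 0.137) were no longer called, with folds close to those without it (0.73, −0.73 and −0.50). Over the 5 shared numbers the log2 ratios of Mthfd2 to Mthfd1 and of Aldh1l2 to Aldh1l1 differed by 2.58 and 2.35 (sign-flip exact test, adjusted p = 0.125, where the smallest unadjusted p is 0.0625), and that of Mthfd1l to Mthfd1 by 0.016. Leaving out a library gave differences of 0.29 to 0.52 for Shmt2 to Shmt1, 2.30 to 2.64 for Mthfd2 to Mthfd1, −0.17 to 0.17 for Mthfd1l to Mthfd1 and 2.19 to 2.50 for Aldh1l2 to Aldh1l1. With 1 FPKM added Shmt2 to Shmt1 passed (0.40, adjusted p = 0.0375). The causes were not tested. The low read number of Aldh1l2 in WT lungs limits its fold change.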
